A study of Mus musculus with 8 samples.

Results

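Interferon-stimulated genes were examined in the kidneys of NEKO mice, which lack Keap1 in the whole body. The set held 34 genes named from what is known of the interferon response, by a rule that used no measured value. Earlier results of these data were known when the genes were chosen. Of the 34 genes, 32 had a named probe on the array and 31 were tested, among 19593 genes and unnamed transcripts in all. Mx1 and Mx2, GTPases that trap viral nucleoproteins, had no named probe. Oas3 had 2 probes: 1 was well above background on 1 of 4 control arrays and no NEKO array, and the other on none.

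Total kidney RNA of 8 mice aged 8 weeks was hybridised to 8 Agilent 1-colour arrays. The 4 NEKO mice carried Keap1-/-::Nrf2Flox/Flox::K5-Cre, and the 4 control mice carried 1 working Keap1 allele on the same Nrf2Flox/Flox background. Of the controls, 3 were K1Cre (Keap1+/-::Nrf2Flox/Flox::K5-Cre) and 1, control replicate 1, was K1 (Keap1+/-::Nrf2Flox/Flox) without the Cre transgene. K5-Cre is driven by the Keratin5 promoter in squamous epithelium, so the floxed Nrf2 alleles are removed there and the kidney of NEKO mice keeps Nrf2 while it lacks Keap1. All mice were of mixed 129Sv/J and C57BL/6J background, and the controls were littermates. Each group held 2 females and 2 males: control replicates 1 and 8 and NEKO replicates 2 and 3 were female, and control replicates 4 and 7 and NEKO replicates 5 and 6 were male. Females and males were on different slides that were also scanned apart, and sex and slide therefore cannot be told apart. Each label carries a number of its own and was taken as 1 mouse; p-values measure the spread between these samples.

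Type I and type II interferons bind separate receptors, which activate JAK kinases and STAT transcription factors. A complex that holds STAT2 and IRF9 binds the interferon-stimulated response element (ISRE), and the type II response acts through the gamma-activated site (GAS). The induced genes encode sensors of foreign nucleic acid, proteins that block translation or degrade RNA, ubiquitin-like modifiers, and GTPases that act on membranes of invading microbes. Many of them have a basal level in uninfected tissue. Nrf2 is the transcription factor that Keap1 holds in check, and it binds the antioxidant response element (ARE).

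Promoter sequences, which the choice of the genes did not use, were searched for these 3 elements. RefSeq promoters (GRCm38.p6, 250 bases before to 50 bases after each start site) were at hand for 26 of the 34 genes, with 32 promoters. The ISRE core, GAAA repeated after any 2 bases and searched on both strands, was found in 16 of the 26 genes (61.5%), against 4.0% of the 27025 genes in the promoter table. The GAS, TTCNNNGAA, was found in 8 of 26 (30.8%), against 9.6%, and the ARE core, TGACNNNGC, in 6 of 26 (23.1%), against 14.0%. Matches of the ISRE core can overlap one another, and its GAA can be shared with a GAS. Below are stretches of 120 bases from the genes with an ISRE match before the start site and the lowest limma p for the genotype, read 5′ to 3′ on the strand of the gene, with the ISRE matches in capitals. They are shown because the same letters recur close to the start site of genes with different roles.
Ifit1, chr19:34640765-34640884, plus strand: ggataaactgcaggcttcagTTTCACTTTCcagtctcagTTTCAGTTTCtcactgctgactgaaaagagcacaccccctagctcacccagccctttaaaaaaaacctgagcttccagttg
Oas1a, chr5:120907526-120907645, minus strand: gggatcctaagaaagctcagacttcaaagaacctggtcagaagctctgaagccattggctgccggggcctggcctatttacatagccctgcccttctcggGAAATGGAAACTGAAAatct
Ifit3, chr19:34583353-34583472, plus strand: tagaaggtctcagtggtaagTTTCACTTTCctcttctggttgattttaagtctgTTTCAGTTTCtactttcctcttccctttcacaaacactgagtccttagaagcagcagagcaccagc
Stat2, chr10:128270256-128270375, plus strand: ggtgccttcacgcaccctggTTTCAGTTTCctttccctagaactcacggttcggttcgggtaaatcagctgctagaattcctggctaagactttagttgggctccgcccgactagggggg
Bst2, chr8:71537503-71537622, minus strand: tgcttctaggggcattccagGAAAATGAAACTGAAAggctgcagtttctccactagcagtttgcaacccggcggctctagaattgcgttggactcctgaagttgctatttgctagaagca
Gbp2, chr3:142620543-142620662, plus strand: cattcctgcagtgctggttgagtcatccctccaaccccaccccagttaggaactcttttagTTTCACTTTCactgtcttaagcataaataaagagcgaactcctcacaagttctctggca

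In Ifit1, Ifit3, Stat2 and Gbp2 the core stood on the strand opposite to the gene, as TTTC repeated after 2 bases, and in Oas1a and Bst2 as a pair of overlapping matches on the gene's own strand. Isg15 held 3 matches, the most of the 26 genes. Irf7, Irf9, Irf1, Ifit2, Oasl1, Oasl2, Isg20, Trim25, Ifi44 and Xaf1 had a promoter in the table without a match.

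All 31 tested genes were well above background on all 8 arrays. Values are given on the log2 scale as the signal over that of the probe at the 75th percentile of the array, so that a gene at 0 is as bright as the probe at that percentile and negative values are dimmer. Levels of different genes come from different probes and were not compared with each other, and Ifit3 and Oas1a have close relatives that their probes may also bind. The targeted gene was checked first: Keap1 differed by -1.63 between NEKO and control (limma, SE 0.10, adjusted p = 0.00459), and the Nrf2 target Nqo1 by 2.62 (SE 0.43, adjusted p = 0.065), with no overlap between the groups for either. Within the controls, Nqo1 was 1.24 in replicate 4 and between 2.35 and 2.46 in the other three. The tubule genes Lrp2, Slc34a1 and Umod stood at 7.41 ± 0.11, 7.00 ± 0.16 and 7.85 ± 0.13 in the controls (SD, n = 4), so markers of kidney tubule were present. Between 61.8% and 65.7% of the probes of each array were well above background.

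The question put to the set was whether its basal level in the kidney differed between NEKO and control mice. Most of the genes had lower mean signals in the NEKO kidneys. Oas2, Oasl1, Zbp1 and Ifit1 had the most negative fitted changes, with fitted signals between 1.78-fold and 1.98-fold lower than in the controls. None of the 31 passed an adjusted p of 0.05 in limma in either direction, where 0.097% of all features were called higher and 0.128% lower. At an unadjusted p under 0.05, 13 of 31 (41.9%) were lower and 0 higher, against 10.6% and 7.39% of all 19593 features. The count of 13 was 7 without control replicate 7 and 8 without either control replicate 8 or NEKO replicate 5. Adjusted p over the 31 genes ran from 0.115 to 0.997. The comparison that the methods of the study name, which allows unequal variances, put 10 of the 31 lower and 0 higher before adjustment, where it put 6.47% of all features lower and 4.82% higher. After adjustment it called 0 of the 31, and 0.0051% of all features lower and 0% higher.

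The fitted log2 change was below 0 in 27 of the 31 genes and above 0 in 4 (12.9%), where 43.8% of all features were above 0. Its median over the 31 genes was -0.31, beside -0.03 over all features. Signs were not settled for the genes near 0: Eif2ak2, Rsad2 and Parp14 changed sign with another background correction or normalization, and Irf1, Irf9, Ddx58 and Trim25 under other alternatives. In 4 genes, Ifit1, Oas1a, Oasl1 and Ifi44, every NEKO kidney was lower than every control kidney; this was so for 5.39% of all features, and 3.89% had every NEKO kidney higher. These 4 genes each had an exact two-sided permutation p of 0.0286, the smallest that 4 mice against 4 allow. The absence of overlap fixes this p and it adds nothing further, and the permutation ignored sex and slide. The genes share mice, so their counts are not independent: a kidney that is low for 1 of them tends to be low for many, as the values below show.

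**Figure D1:**
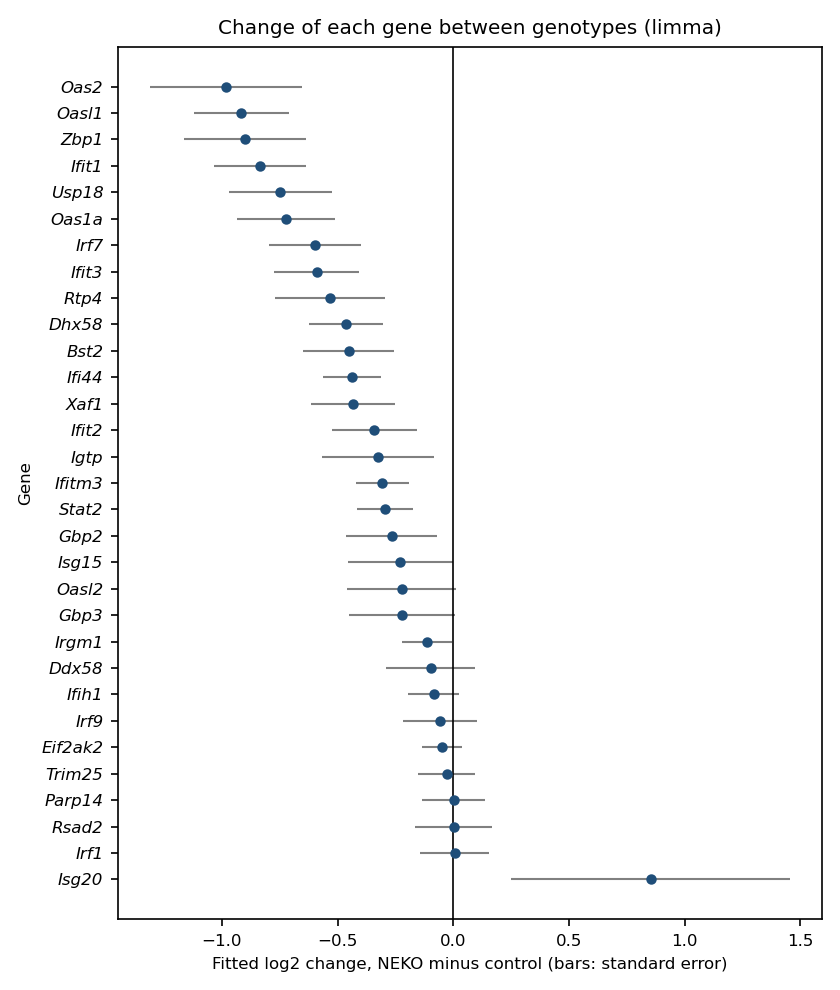
Fitted log2 change between NEKO and control kidneys (x axis, limma with sex as a term) for each of the 31 tested genes (y axis), with the standard error as bars; n = 4 mice a group. The points run from -0.98 for Oas2 to 0.85 for Isg20, with 27 of 31 below 0.

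Among the transcription factors, Irf7, which amplifies type I interferon production, had the largest difference. Irf7 levels were -1.44 and -1.35 in the control females, -2.03 and -1.34 in the control males, -1.99 and -1.94 in the NEKO females, and -2.67 and -1.94 in the NEKO males. All 4 NEKO kidneys lay below control replicates 1, 7 and 8, and control replicate 4 lay within the NEKO range, so the groups overlapped. The fitted change of Irf7 was -0.60 (limma, SE 0.20, adjusted p = 0.204). Stat2, a part of the ISRE-binding complex, differed less, by -0.29 (SE 0.12, adjusted p = 0.27). Its control levels ran from -0.43 to -0.06 and its NEKO levels from -0.65 to -0.34, which overlap. Irf9, the DNA-binding part of that complex, differed by -0.06 (SE 0.16) and Irf1, a factor induced by interferon-gamma, by 0.01 (SE 0.15), neither beyond the spread between mice.

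Of the nucleic acid sensors, Zbp1, a sensor of Z-form nucleic acid that can trigger necroptosis, stood apart in 3 of the 4 NEKO kidneys. Zbp1 was -2.06 and -1.66 in the control females, -2.32 and -1.91 in the control males, -3.08 and -3.11 in the NEKO females, and -3.20 and -2.16 in the NEKO males. NEKO replicate 6 lay inside the control range, while the other three NEKO kidneys lay below all controls. The fitted change was -0.90 (limma, SE 0.26, adjusted p = 0.171). Dhx58, the regulatory RNA helicase LGP2, had levels of -2.34 and -2.30 in the control females, -2.96 and -2.39 in the control males, -2.88 and -2.82 in the NEKO females, and -3.34 and -2.81 in the NEKO males. Here too control replicate 4 was as low as the NEKO kidneys, and the fitted change was -0.46 (SE 0.16, adjusted p = 0.212). The sensors RIG-I and MDA5 themselves differed little: Ddx58 by -0.10 (SE 0.19) and Ifih1 by -0.08 (SE 0.11). Probes of Ddx58 disagreed, since the other two kept probes, both dimmer, differed by 0.50 and 0.21. On the brightest probe Ddx58 had levels of -0.18 to 0.14 in the controls and -0.78 to 0.28 in the NEKO kidneys, where NEKO replicate 3 was the low one.

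Of the RNA-binding and RNA-degrading effectors, 5 of 9 were lower at an unadjusted p under 0.05, where 10.6% of all features were. Those 5 included 3 of the 4 genes without overlap, where 5.39% of all features had every NEKO kidney lower. Ifit1, which binds viral RNA that lacks the host's cap methylation, read -1.85 and -1.71 in the control females, -2.32 and -1.95 in the control males, -2.53 and -2.79 in the NEKO females, and -3.37 and -2.49 in the NEKO males. Its highest NEKO value, in replicate 6, was below its lowest control value, in replicate 4, and the fitted change was -0.84 (limma, SE 0.20, adjusted p = 0.127). Oasl1, a member of the oligoadenylate synthetase family that restrains Irf7 translation, read -2.22 and -2.19 in the control females, -2.76 and -2.10 in the control males, -2.91 and -3.24 in the NEKO females, and -3.76 and -3.03 in the NEKO males. The gap between the groups was again set by control replicate 4, and the fitted change was -0.92 (SE 0.21, adjusted p = 0.115).

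Oas1a, an oligoadenylate synthetase that activates RNase L, measured -1.51 and -1.29 in the control females, -1.86 and -1.10 in the control males, -2.26 and -1.88 in the NEKO females, and -2.56 and -1.94 in the NEKO males. NEKO replicate 3 and control replicate 4 differed by less than the spread within either group, so the absence of overlap was narrow; the fitted change was -0.72 (limma, SE 0.21, adjusted p = 0.172). Oas2, of the same family, had the most negative fitted change of the 31 genes, -0.98, with the largest error among those that were lower (SE 0.33, adjusted p = 0.204). Oas2 levels were -2.49 and -2.18 in the control females, -3.28 and -2.38 in the control males, -3.66 and -3.29 in the NEKO females, and -4.32 and -2.98 in the NEKO males. NEKO replicate 5 was far below the rest, and NEKO replicate 6 lay above control replicate 4. Oasl2 had levels of -0.59 to 0.21 in the controls and -0.79 to 0.12 in the NEKO kidneys, and differed by -0.22 (SE 0.23). The brighter probe of Oas3 averaged -5.07 in the controls and -6.46 in the NEKO kidneys. As it was not well above background on any NEKO array and on 1 control array alone, no fold change can be given.

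Ifit3, of the same family as Ifit1, differed by -0.59 (limma, SE 0.18, adjusted p = 0.187), and the difference was of unequal size in the sexes. Its levels were 2.14 and 1.94 in the control females, 1.55 and 1.93 in the control males, 1.78 and 1.78 in the NEKO females, and 0.58 and 1.07 in the NEKO males. NEKO females lay within the control range and NEKO males below it. Ifit2, a relative that promotes apoptosis, had levels of -2.56 to -1.94 in the controls and -3.44 to -1.97 in the NEKO kidneys. Its fitted change was -0.34 (SE 0.18), and its second kept probe differed by -0.51. Eif2ak2, the kinase PKR that shuts down translation, differed by -0.05 (SE 0.09).

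Isg20, a 3′ to 5′ exonuclease of single-stranded RNA, had the highest fitted change of the 31 genes, 0.85 (limma, SE 0.60, adjusted p = 0.476), with overlapping groups, and 1 mouse carried it. Isg20 read -1.75 and -1.15 in the control females, -1.35 and -0.65 in the control males, -0.67 and -1.13 in the NEKO females, and 1.63 and -1.32 in the NEKO males. Without NEKO replicate 5 the fitted change was 0.20, and without NEKO replicate 6 it was 1.38. The second kept probe of Isg20 differed by 0.70.

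**Figure D2:**
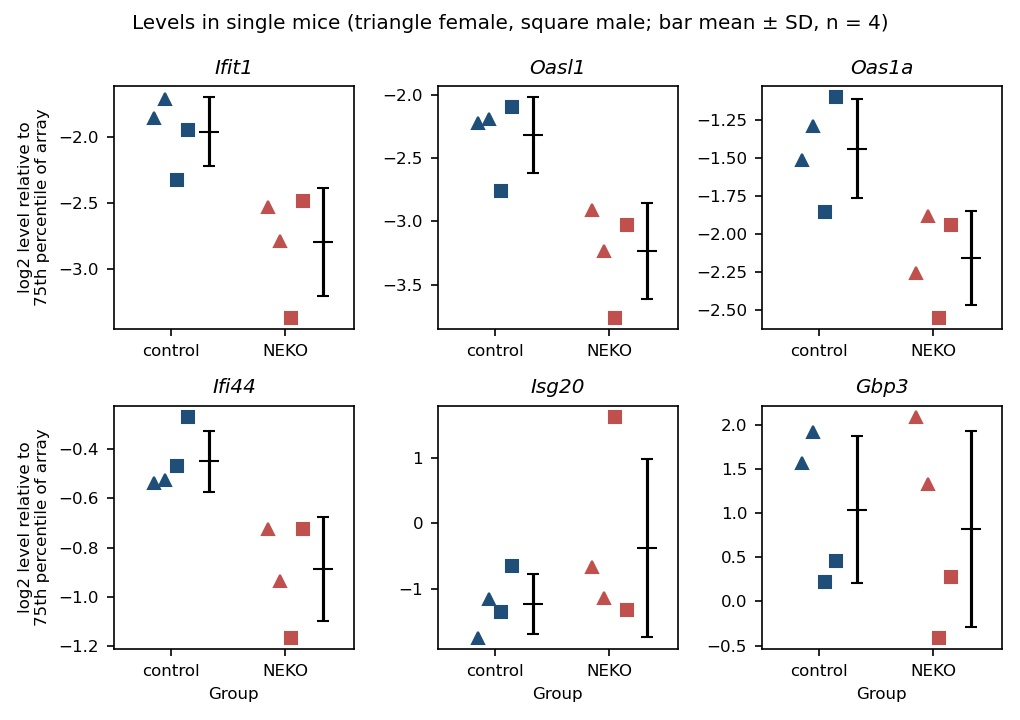
Log2 level, with 0 at the 75th percentile of each array (y axes), in each mouse of the control and NEKO groups for the 4 genes without overlap and for Isg20 and Gbp3; triangles are females, squares males, bars mean ± SD, n = 4. The NEKO values of Ifit1, Oasl1, Oas1a and Ifi44 all lie below the control values, Isg20 is raised in NEKO replicate 5 at 1.63, and Gbp3 separates by sex.

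In the ISG15 system, Usp18, the protease that removes ISG15 from proteins and restrains the type I receptor, had the largest difference. Usp18 levels were -0.93 and -0.61 in the control females, -1.48 and -0.74 in the control males, -1.47 and -1.50 in the NEKO females, and -2.29 and -1.50 in the NEKO males. NEKO replicates 2, 3 and 6 lay close together beside control replicate 4, with NEKO replicate 5 far lower; the fitted change was -0.75 (limma, SE 0.22, adjusted p = 0.175). Isg15, the ubiquitin-like modifier itself, measured -0.04 and -0.12 in the control females, -0.66 and -0.14 in the control males, -0.59 and -0.87 in the NEKO females, and 0.05 and -0.47 in the NEKO males. It was highest of all 8 kidneys in NEKO replicate 5, the kidney in which Usp18 was lowest, and its fitted change was -0.23 (SE 0.23). Trim25, the ubiquitin ligase that acts on RIG-I, differed by -0.03 (SE 0.12).

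Of the membrane-acting effectors, 3 of 4 were below 0 and 1 above, where 43.8% of all features were above 0. Ifitm3, which blocks fusion of viruses in endosomes, measured 2.91 and 2.89 in the control females, 2.64 and 2.76 in the control males, 2.45 and 2.32 in the NEKO females, and 2.48 and 2.73 in the NEKO males. The groups overlapped through NEKO replicate 6 alone, and the fitted change was -0.31 (limma, SE 0.11, adjusted p = 0.234). Bst2, the tetherin that holds budding virus at the cell surface, read 2.42 and 2.69 in the control females, 2.08 and 2.48 in the control males, 1.94 and 1.74 in the NEKO females, and 1.75 and 2.43 in the NEKO males. Its NEKO replicates 2, 3 and 5 lay below all controls, and the fitted change was -0.45 (SE 0.20, adjusted p = 0.288). Rtp4, a chaperone of membrane receptors, had levels of 1.41 to 2.06 in the controls and 0.71 to 1.71 in the NEKO kidneys, with a fitted change of -0.53 (SE 0.24, adjusted p = 0.296). Rsad2, the radical SAM enzyme viperin, differed by 0.00 (SE 0.17), and its other two probes by -0.05 and 0.02. As with Isg15 and Isg20, its highest value, 0.99, was in NEKO replicate 5.

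The interferon-gamma-inducible GTPases, which attack the vacuoles of intracellular microbes, showed no member at an unadjusted p under 0.05 between the genotypes. Fitted changes were -0.27 (SE 0.20) for Gbp2, -0.22 (SE 0.23) for Gbp3, -0.33 (SE 0.24) for Igtp and -0.11 (SE 0.11) for Irgm1. Gbp2 had levels of -0.07 to 0.31 in the controls and -0.49 to 0.32 in the NEKO kidneys, which overlap. Igtp levels were 2.06 and 1.82 in the control females, 1.81 and 1.55 in the control males, 1.33 and 1.02 in the NEKO females, and 1.41 and 2.17 in the NEKO males. Both NEKO females and NEKO replicate 5 lay below all controls, and NEKO replicate 6 was the highest of the 8 kidneys. Of the other effectors, Ifi44, a GTP-binding protein, measured -0.54 and -0.53 in the control females, -0.47 and -0.27 in the control males, -0.72 and -0.93 in the NEKO females, and -1.17 and -0.73 in the NEKO males, with a fitted change of -0.44 (limma, SE 0.13, adjusted p = 0.171). Xaf1, a pro-apoptotic protein, had levels of -1.43 to -0.98 in the controls and -1.96 to -1.20 in the NEKO kidneys, with a fitted change of -0.43 (SE 0.18, adjusted p = 0.275). Parp14, a mono-ADP-ribosyltransferase, differed by 0.00 (SE 0.14) on its brightest probe and -0.38 on the other kept probe.

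The genes of the set varied together from mouse to mouse, also within a group. For each mouse the deviation of each gene from its mean over the 8 arrays was taken. The median deviation over the 31 genes was 0.27, 0.34 and 0.22 in control replicates 1, 8 and 7, with 29, 28 and 23 genes above the mean. Control replicate 4 stood lower, at -0.11, with 7 genes above the mean. In the NEKO kidneys it was -0.11, -0.22, -0.44 and 0.08 in replicates 2, 3, 5 and 6, with 9, 5, 4 and 16 genes above the mean.

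The ranges of the groups therefore overlapped: NEKO replicate 6 was above control replicate 4 by this measure, and NEKO replicate 2 close to it. Over all features the same medians lay between -0.02 and 0.03. Each array was scaled to a percentile of its own probes, which by itself keeps these medians small. The spread of the set is therefore relative to the scale of each array. Whether the whole array shared it before scaling was not tested. Against its own group's mean, control replicate 4 was below in 30 of 31 genes and NEKO replicate 6 above in 26. NEKO replicate 5 was the lowest of the 8 kidneys in 20 genes, and was at the same time the highest in 3, Isg20, Isg15 and Rsad2. Control replicate 8 was the highest in 13. The array of control replicate 4 had 172 outlier spots, the most of the 8, and 61.8% of its probes were well above background, the fewest; their part in the low values was not tested. Without control replicate 4 the median change of the 31 genes was -0.37, and without NEKO replicate 5 it was -0.26.

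**Figure D3:**
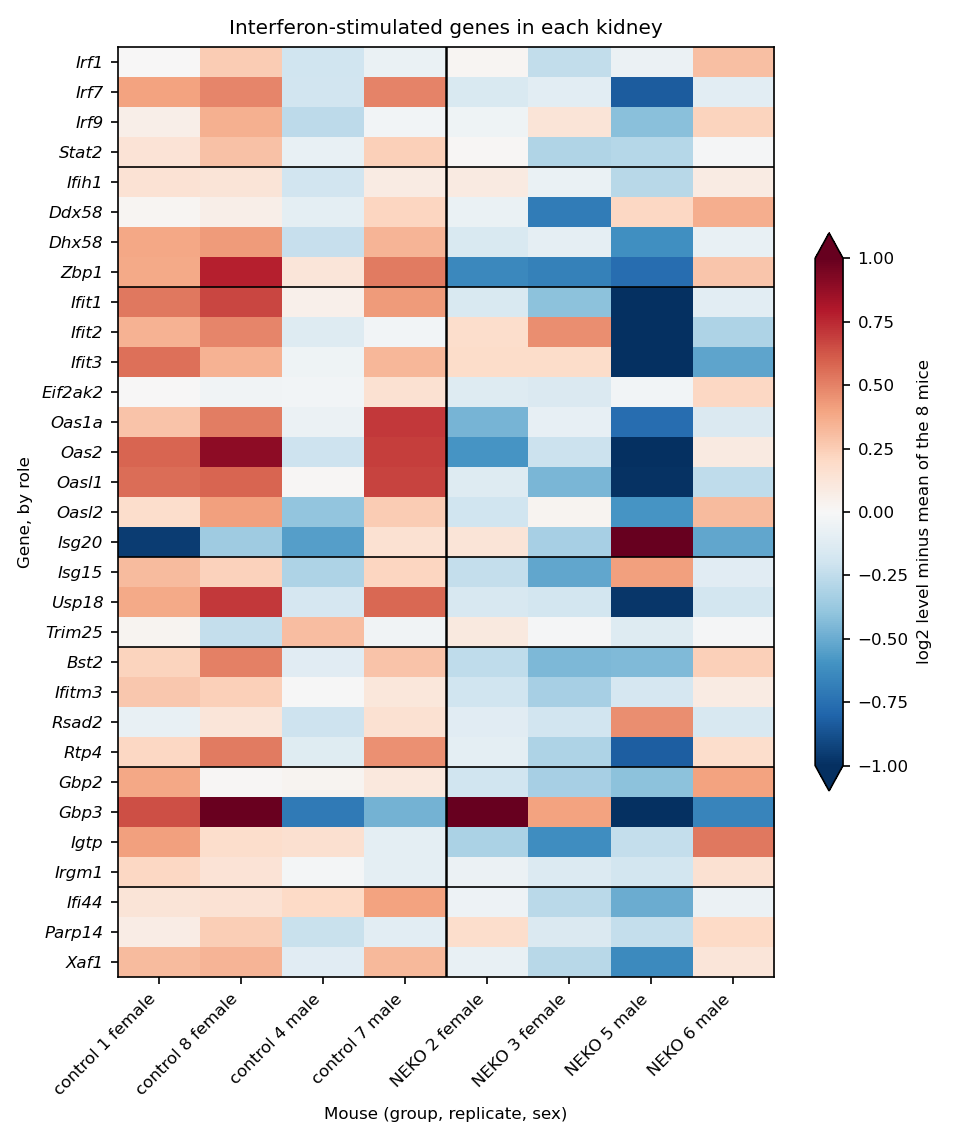
Log2 level of each tested gene (rows, grouped by role in the order of the text) in each of the 8 kidneys (columns) minus the gene's mean over the 8; colours are cut at -1 and 1. Control replicates 1, 7 and 8 are mostly above the mean, and control replicate 4 is above it in 7 genes only. NEKO replicate 5 is below it in all but 4 genes, and NEKO replicate 6 is above it in 16.

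Whether the genotype acted alike in females and males was asked with an interaction term. In the females 29 of 31 genes had lower NEKO means, with a median difference of -0.42, and in the males 21 of 31, with a median of -0.21; the medians over all features were -0.03 and -0.03. In 20 genes the difference was below 0 in both sexes. No member passed an adjusted p of 0.05 for the interaction (limma, lowest adjusted p = 0.468), which 0.0153% of features passed. At an unadjusted p under 0.05 only Isg15 was found, with its difference higher in males, against 6.87% of features with larger values in males and 3.67% in females. Its difference was -0.65 in females and 0.19 in males. With 2 mice a group and sex, this comparison can show large differences alone.

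Oas1a, Oasl1, Irf7 and Usp18 had nearly equal differences in the sexes, such as -0.87 in females and -0.97 in males for Oasl1. Igtp differed by -0.76 in females and 0.11 in males, and Zbp1 by -1.24 and -0.57, whereas Ifit3 differed more in males (-0.92) than in females (-0.26). None of these contrasts passed the interaction test, with adjusted p between 0.502 and 0.984 for the genes just named.

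**Figure D4:**
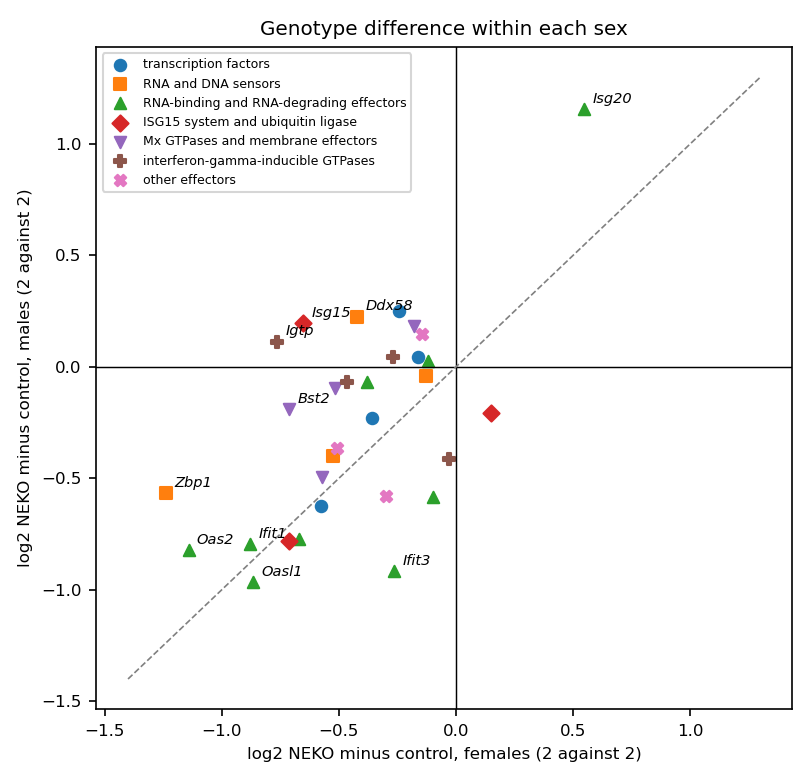
Difference of the NEKO and control means on the log2 scale in females (x axis) and males (y axis), 2 mice against 2 in each, for the 31 tested genes by role; the dashed line marks equal differences. Of the 31 points, 20 lie below 0 on both axes and 9 below 0 in females only.

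Gbp3, a guanylate-binding protein, was the only member called between females and males, who were also on different slides. It was 1.57 and 1.92 in the control females, 0.22 and 0.46 in the control males, 2.09 and 1.34 in the NEKO females, and -0.42 and 0.27 in the NEKO males. The 4 females lay above the 4 males in both groups, and the fitted difference was -1.60 for males minus females (limma, adjusted p = 0.0423), a call that 0.306% of all features shared. No member was called higher in males (0.48% of features were), and at an unadjusted p under 0.05, 3 members were lower and 0 higher in males, against 10.7% and 10.4% of features. The call was lost when any 1 mouse was left out.

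The rest of the interferon pathway was read from 84 further genes, of which 77 had a named probe and 69 were tested. None passed an adjusted p of 0.05. At an unadjusted p under 0.05, 3 were higher and 9 lower, beside 7.39% and 10.6% of all features. By the methods' comparison 2 of 69 were higher and 5 lower before adjustment, beside 4.82% and 6.47% of all features, and 0 after it. Of the interferon transcripts, the probe of Ifnb1 was well above background on 0 of 8 arrays, and of the 2 probes of Ifng, 1 was above on no array and the other on 1 control and 1 NEKO array. Of the 9 ligands listed, 7 had a named probe and only Ifna2 was tested; its probe was well above background on all 8 arrays, with a difference of -0.42 (SE 0.23).

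The 6 receptor chains differed by -0.21 to 0.16, Ifnar1 by 0.04 (SE 0.08) and Ifngr1 by 0.16 (SE 0.10). Of the 11 genes of JAK-STAT signalling and its inhibitors, 9 were above 0, with a median of 0.24. Over all features 43.8% were above 0, with a median of -0.03. The median difference of these 11 genes was 0.05 in females and 0.38 in males, and Stat3, Irf8, Socs1 and Socs3, chosen after their values were seen, had an unadjusted interaction p under 0.05 with differences higher in males. Over all 69 pathway genes this was so for 11, and for 2 with differences higher in females, beside 6.87% and 3.67% of all features; none passed adjustment. Ptpn2, a phosphatase that inactivates JAK and STAT proteins, read 1.34 and 1.44 in the control females, 1.58 and 1.53 in the control males, 1.65 and 1.70 in the NEKO females, and 1.97 and 1.91 in the NEKO males. All NEKO kidneys were higher than all controls, with a fitted change of 0.33 (limma, SE 0.07, adjusted p = 0.0962). Of the 69 genes, 2 had every NEKO kidney higher and 0 every one lower, beside 3.89% and 5.39% of all features. Socs3, a feedback inhibitor of cytokine receptors, had a fitted change of 0.62 (SE 0.25, adjusted p = 0.26), and differed by 0.12 in females and 1.11 in males.

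Among 17 genes of sensing upstream of interferon, 7 were above 0, where 43.8% of all features were, and the median was -0.02. Tlr3, the endosomal receptor for double-stranded RNA, differed by -0.55 (limma, SE 0.15, adjusted p = 0.153) and Myd88, an adaptor of Toll-like receptors, by 0.18 (SE 0.08) with no overlap between the groups; both were chosen after their values were seen. Of 34 further interferon-inducible genes outside the set, 31 were below 0 and 3 above, where 43.8% of all features were above 0. Their median was -0.27. Where 10.6% of all features were lower at an unadjusted p under 0.05, 7 of the 34 were. The lowest of these, also named after the fact, was Tgtp1, an interferon-gamma-inducible GTPase that can share signal with its near-identical neighbour Tgtp2. Tgtp1 read 1.71 and 1.49 in the control females, 1.55 and 1.06 in the control males, 0.32 and 0.07 in the NEKO females, and -0.04 and 1.17 in the NEKO males. Control replicate 7 and NEKO replicate 6 overlapped, and the fitted change was -1.07 (SE 0.29, adjusted p = 0.154). Cxcl9, a T-cell chemokine also named after its values were seen, differed by -1.96 in females and 0.72 in males.

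**Figure D5:**
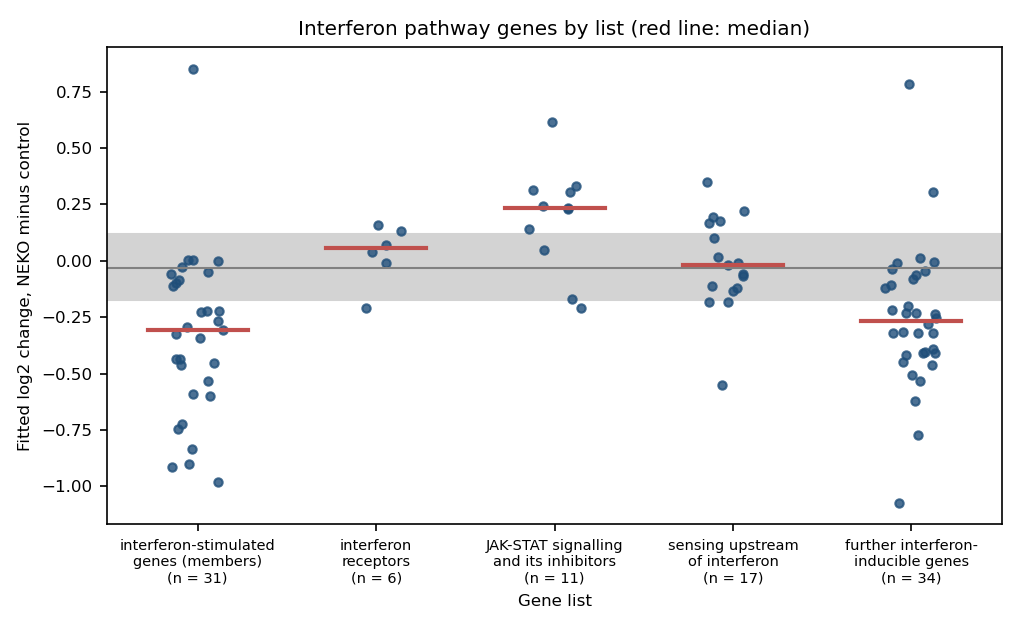
Fitted log2 change between NEKO and control kidneys (y axis) for each gene of the set and of 4 lists of the wider pathway (x axis); red lines are medians, the grey line and band the median and the range between the quartiles of all 19593 features. Medians are -0.31 for the set, 0.05 for receptors, 0.24 for JAK-STAT signalling, -0.02 for sensing and -0.27 for further inducible genes.

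Leukocytes express many of these genes, and in whole kidney fewer cells of a type and less RNA per cell cannot be told apart. The summed linear signal of 3 leukocyte genes (Ptprc, Coro1a, Laptm5) was between 1.72 and 2.49 times the 75th percentile of the array in controls and between 1.47 and 3.29 in NEKO kidneys, with no gene called. In females their median difference was -0.51 and in males 0.76. Of 4 macrophage genes, summed at 3.36 to 4.32 in controls and 2.97 to 5.34 in NEKO, Lyz2 alone had an unadjusted p under 0.05. The fitted change of Lyz2 was 1.38 (limma, adjusted p = 0.272), with differences of 0.08 in females and 2.67 in males. Lyz2 averaged -3.71 in the controls and made up a small part of their sum. Adgre1, Csf1r and C1qa had fitted changes of 0.21, -0.19 and 0.03. In females and males, Adgre1 differed by -0.24 and 0.66 and C1qa by -0.45 and 0.51, while Csf1r went the other way, by 0.29 and -0.67. Of 3 T-cell genes tested, Cd8a was lower in every NEKO kidney than in any control, by -1.28 (adjusted p = 0.194), while Cd3e and Cd3g differed by 0.10 and 0.28; 1 control value of Cd3e was missing and its fit used the other 7 arrays.

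The other lists gave no called gene either. The 2 B-cell genes summed to 0.11 to 0.14 in controls and 0.10 to 0.24 in NEKO kidneys, and the 2 natural killer cell genes to 0.14 to 0.17 and 0.09 to 0.28. Median differences in females and males were -0.25 and 0.55 for the B-cell genes and -1.03 and 0.60 for the natural killer cell genes. No interaction passed adjustment in these 2 lists. Of the natural killer cell genes, Klrb1c was well above background on 3 control arrays and 1 NEKO array. The 2 genes kept for plasmacytoid dendritic cells, which are a main source of type I interferon, summed to 0.20 to 0.54 and 0.73 to 1.79; nearly all of it was Ly6d, a surface protein that epithelia also express, and Ccr9 differed by 0.34 (SE 0.44). Neutrophil genes S100a8 and S100a9 summed to 0.17 to 0.49 in the controls. In NEKO replicates 2, 3, 5 and 6 they summed to 0.31, 0.51, 6.58 and 1.55. Both had an unadjusted p under 0.05 in limma, and the fitted change of S100a9 was 1.64 (adjusted p = 0.272). S100a8 was well above background on 1 control array and 3 NEKO arrays. Its fitted change of 1.81 (limma, adjusted p = 0.237) therefore rests on values near background. The 6 tubule genes summed to 538 to 625 in controls and 523 to 592 in NEKO kidneys, the 3 endothelial genes to 19.1 to 22.2 and 20.3 to 22.0, and the 2 podocyte genes to 0.88 to 1.42 and 0.83 to 1.74. The part of these cells in the interferon-stimulated genes was not tested.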

How the data were processed

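For each of the 8 arrays the authors deposited the intensity of every spot as written by Feature Extraction, whose processed signal has had background subtracted. A deposited matrix holds log2 values, 99.9% of which lay within 0.01 of the values recomputed here after centring on each probe's median. Its column medians were between -0.04 and 0.08.

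Spots marked as outliers, 73 to 172 of 43379 an array, were left out. Probes of 1 gene were named through RefSeq accessions. A probe was kept when well above background on at least 4 arrays and with a value on at least 6, and the brightest kept probe stood for the gene. Values are log2 processed signal minus the array's 75th percentile over non-control probes. limma 3.58.1 in R 4.3.3 was fitted with genotype and sex, or their interaction, with Benjamini-Hochberg adjustment over all 19593 features. The script was tested on simulated data. The number of arrays limits the precision.

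The genes and lists were chosen with earlier results of these data known. Named are all 34 genes of the set, pathway genes called, or with unadjusted p under 0.05 and no overlap between groups, Ifnar1, Ifngr1, Ifnb1 and Ifng, the check genes, and marker genes where their list is given. Ifna2, Tlr3, Myd88, Stat3, Irf8, Socs1, Socs3, Tgtp1 and Cxcl9 fall outside this rule and were chosen after their values were seen. Promoters are printed for up to 6 genes. 1 gene that the rule names is not reported here. Alternatives changed background correction, normalization, filter, probe choice, sex term, variance model, test, or left out 1 mouse.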

Additional observations from a re-analysis of the deposited data

Results flagged for a closer look

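Of 62 groups of 4 mice (31 genes in 2 groups), 9 had 1 mouse whose gap to the nearest of the others took up more of the group's range than Dixon's critical value for 4 allows; chance alone gives about 1 in 20 groups, and the genes share mice. Control replicate 4 was the low mouse in 4 genes: the gap was 0.856 of the control range for Irf7, 0.868 for Dhx58, 0.833 for Isg15 and 0.945 for Xaf1. Its Irf7 level was -2.03, with the next control at -1.44. NEKO replicate 5 was the low mouse in 3 genes, with 0.931 of the NEKO range for Irf7, 0.864 for Dhx58 and 0.964 for Usp18, where it stood at -2.29 and the next NEKO kidney at -1.50. It was the high mouse for Rsad2 (0.884 of the NEKO range), at 0.99 against 0.41 for the next. NEKO replicate 6 was the high mouse for Zbp1 (0.884), at -2.16 against -3.08 for the next.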

How the results depend on the processing

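No member of the set was called between genotypes under any adjusted alternative, of 21 settings tried, and none for the interaction. The methods' t-test without adjustment (p under 0.05) put 0 members higher and 10 lower, and 2 pathway genes higher and 5 lower, beside 4.82% of all features higher and 6.47% lower; after Benjamini-Hochberg adjustment it gave 0 for each. The count of members called between the sexes, 1 (Gbp3), was 0 without the filter on dim probes and 0 to 0 when each mouse was left out in turn. The median change of the set, -0.31, lay between -0.25 and -0.32 under the other alternatives and between -0.24 (without NEKO replicate 3) and -0.44 (without NEKO replicate 6) when 1 mouse was left out. At an unadjusted p under 0.05 the count of lower members, 13, was 7 without control replicate 7, 8 without control replicate 8 or NEKO replicate 5, and 19, with 1 higher, without NEKO replicate 6. Over 651 values of single genes under the alternatives, 626 kept their sign; the other 25 belonged to 7 genes near 0, and the cause was not tested. The reversed values among these, for Eif2ak2, Ddx58, Irf1, Irf9, Parp14, Rsad2 and Trim25, ran between -0.19 and 0.21. The background correction by normexp used median spot signals. No paired analysis was possible because replicate numbers run over both groups and none is shared. Dim probes, such as those of Oas3, Ifnb1 and Ifng, limit what can be said of these genes.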
